A study of Mus musculus with 3 samples.

Results

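The Trem receptor cluster and its adaptor gene Tyrobp were examined in a CUT&RUN series on Foxp3 in mouse bone marrow-derived macrophages (BMDMs). The members were 7 genes: Trem1, Trem3, Trem2, Treml4, Treml2 and Treml1 on chromosome 17, and Tyrobp on chromosome 7. The gene table holds 21627 protein-coding genes from the autosomes and the X chromosome. For each gene, the peaks over the gene and 5 kb beyond both of its annotated ends were collected from both Foxp3 peak lists. This gave 46 of 556535 peaks in replicate 1 and 9 of 95135 peaks in replicate 2. The windows of neighbouring genes overlap, so 6 of the replicate 1 peaks and 1 of the replicate 2 peaks belong to a pair of members.

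BMDMs are macrophages grown from marrow progenitors in medium conditioned with M-CSF. CUT&RUN sequences the short DNA fragments that a nuclease, tethered to an antibody in permeabilised cells, cuts free around the antibody's target. The series has 3 samples. Both Foxp3 libraries (replicates 1 and 2) were made from lightly formaldehyde-fixed BMDMs with the same Foxp3 antibody, and the other sample used an isotype IgG, whose values were not analysed here. The labels give no strain, age or genotype. The series title names stimulation with brain-derived DAMPs, which are molecules released by damaged tissue, but the labels do not say which samples received it. Nothing in them marks the replicates as separate cultures or animals, so differences between replicates may be technical.

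Trem receptors are single-domain immunoglobulin-like proteins of the myeloid cell surface, encoded side by side in one cluster. Trem1, Trem2 and Trem3 have short tails and signal through Tyrobp (also called DAP12), a small transmembrane adaptor whose cytoplasmic tail carries an activation motif that recruits the kinase Syk. Trem2 is best known in macrophages and microglia as a receptor for lipids, lipoproteins and cell debris, and Trem1 as an amplifier of inflammatory responses. The Trem-like genes encode related receptors, of which Treml1 carries an inhibitory motif and is found in platelets and megakaryocytes.

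Replicate 1 held 33294105 fragments and replicate 2 held 34898401, so depth was similar while the peak number was not. The fragment size was 130 bp in replicate 1 and 180 bp in replicate 2, and the median peak length 167 and 236 bp. No peak with a pileup under 10 fragments in replicate 1, or under 13 in replicate 2, was listed, so weaker sites are out of view. All fold enrichments below are the authors' deposited values, the fragments over the summit (the pileup) plus 1, divided by a background term that the caller drew from that library alone. Their medians over all peaks were 4.92 in replicate 1 and 3.99 in replicate 2. A peak is called shared here when peaks of the replicates overlap by at least 50% of both lengths, which held for 31253 pairs genome-wide. These were 5.62% of the replicate 1 peaks and 32.9% of the replicate 2 peaks. Peaks do not measure RNA, so the macrophage label could not be checked by expression. A shared peak lay over 5 of 10 macrophage marker genes, 4 of 9 T cell, 4 of 6 B cell and 1 of 6 neutrophil marker genes, against 63.5% of all genes. The median windows of these lists were 28.3, 31.0, 21.6 and 12.6 kb in the same order, against 27.3 kb for all genes.

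Of the 7 members, 6 had a peak in both replicates and 4 had a shared peak. Among all protein-coding genes, 82.7% had a peak in both replicates and 63.5% had a shared peak, so with these windows neither count sets the members apart from the background. The members' windows run from 13.8 to 24.2 kb, against a median of 27.3 kb for all genes. Among the 5709 genes with windows of that range, 81.6% had a peak in both replicates and 56.6% a shared peak. Trem2 was the member whose peaks were strongest in both replicates, and Trem1 was the member with no peak in replicate 2. With the gene bodies alone, 1 of 7 members, Trem2, had a shared peak, below the 55.7% of all genes, a share not matched for gene length. The IgG library was not analysed here, so no comparison between groups was made and none of these values carries a test.

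**Figure D1:**
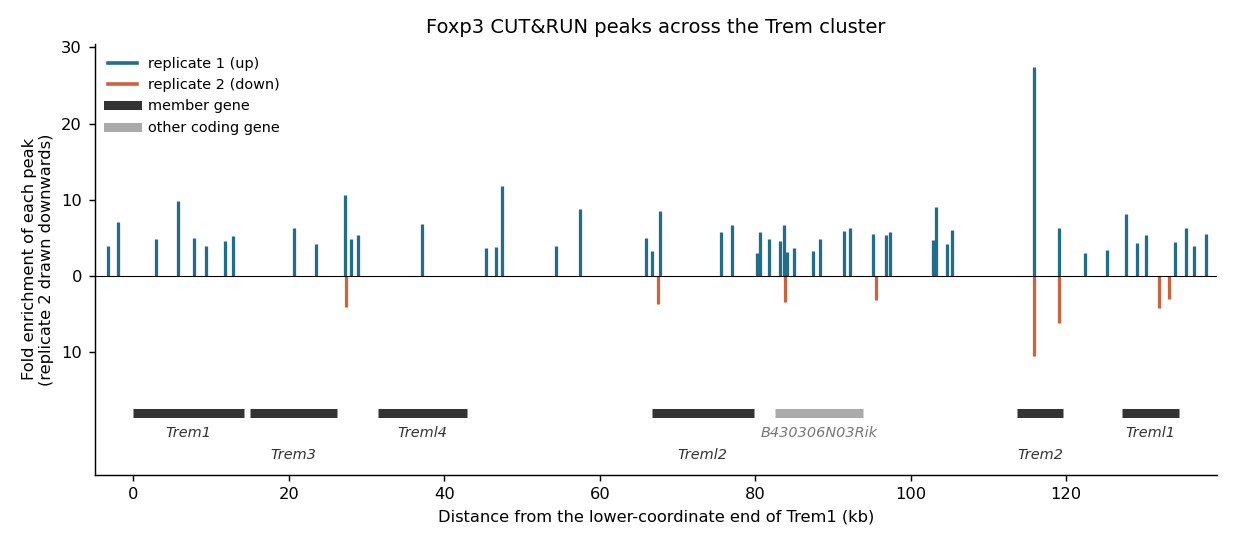
Fold enrichment of each peak (vertical axis) against distance in kb from the lower-coordinate end of Trem1 (horizontal axis) over the 144 kb Trem cluster. Replicate 1 is drawn upwards and replicate 2 downwards, and bars mark genes. The pair of tallest opposed lines, at 27.4 and 10.6, lies inside Trem2, and no replicate 2 line lies over Trem1.

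Trem2 (gene ID 83433, chr17:48346401-48352276, mm10) carried 2 shared peaks, and both lay inside the gene. The stronger peak spanned chr17:48348413-48348811 in replicate 1 and chr17:48348456-48348784 in replicate 2. Its summits were 8 bp apart, 2189 and 2197 bp into the gene from the annotated start. The fold was 27.4 in replicate 1, against 10.6 in replicate 2 (mean 18.96 ± 11.9, SD, n = 2), so the replicates ranked it high but disagreed on its size. The pileups were 688 and 99 fragments, a ratio of 6.95, against a median ratio of 1.67 (quartiles 1.15 and 2.39) over all shared pairs.

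This Trem2 peak was among the strongest of both lists. In replicate 1, 404 of 556535 peaks had an equal or higher fold and 52 an equal or higher pileup. In replicate 2, 198 of 95135 peaks reached its fold and 292 its pileup. Of the 31253 shared pairs, 55 reached its fold in both replicates, itself included. At the level of genes, 21 of 21627 had peaks within 5 kb that reached both folds. Ranked by the strongest peak in each window, Trem2 stood at 269 in replicate 1 and at 131 in replicate 2.

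The second Trem2 peak lay toward the other end of the gene, at chr17:48351758-48351937 in replicate 1 and chr17:48351743-48351937 in replicate 2. Both lists ended it at the same base, and the summits were 9 bp apart, 440 and 449 bp inside the higher-coordinate end. The fold was 6.34 in replicate 1, against 6.19 in replicate 2 (mean 6.26 ± 0.106, SD, n = 2), which is close agreement for values that are modest for replicate 1 and high for replicate 2. In replicate 1, 69.6% of all peaks had an equal or lower fold, and in replicate 2, 91.7% did. The pileups of 153 and 56 fragments, a ratio of 2.73, were far above the list medians of 21 in each replicate. The pileups thus differed more than the folds, and the upper quartile of their ratio over all shared pairs was 2.39. A summit gap of at most 9 bp was found in 8.58% of all shared pairs, whose median gap was 71 bp.

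The background term under both Trem2 peaks was raised. It was 25.2 and 24.3 fragments in replicate 1, or 6.66 and 6.43 times the genome-wide term of 3.78. In replicate 2 it was 9.48 and 9.21 fragments, or 1.86 and 1.81 times the genome-wide term of 5.09. The term is taken over as much as 10000 bp and so includes fragments of the peaks themselves. The part that this raised background has in the Trem2 folds was not tested. The other Trem2 peak, seen in replicate 1 only, lay 2805 bp beyond the higher-coordinate end with a fold of 3.05. Genes with 2 or more shared peaks within 5 kb made up 27.7% of all protein-coding genes and 17.7% of those with windows as long as the members'.

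**Figure D2:**
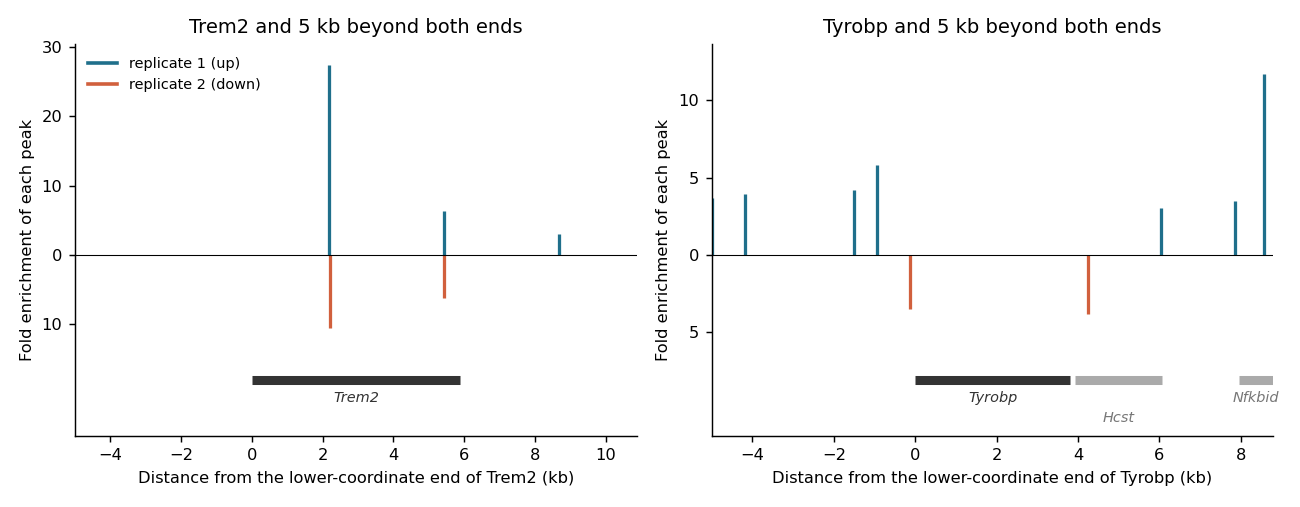
Fold enrichment of each peak (vertical axis, replicate 1 upwards and replicate 2 downwards) against distance in kb from the lower-coordinate gene end (horizontal axis), for Trem2 (left) and Tyrobp (right) with 5 kb beyond both ends. Over Trem2 the replicates' lines coincide at 2 places, while over Tyrobp they coincide nowhere and the gene body holds none. The vertical scales differ between the panels.

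Neither Trem2 peak lay at the promoter. The RefSeq promoter table (GRCm38.p6, the assembly of mm10) holds 300 bases around the start, 250 before and 50 after it, for 4 members: Trem1, Treml4, Trem2 and Treml1. None of these 4 overlapped a peak in either replicate. Over all 32619 promoters of the table on these chromosomes, 50.2% overlapped a replicate 1 peak and 35.5% a replicate 2 peak. Shown are the promoters of Trem2, the gene with the strongest peaks, and Treml1, of these 4 the one closest to a peak. Both are on the plus strand with the motif matches in capitals.
Trem2, chr17:48346151-48346450: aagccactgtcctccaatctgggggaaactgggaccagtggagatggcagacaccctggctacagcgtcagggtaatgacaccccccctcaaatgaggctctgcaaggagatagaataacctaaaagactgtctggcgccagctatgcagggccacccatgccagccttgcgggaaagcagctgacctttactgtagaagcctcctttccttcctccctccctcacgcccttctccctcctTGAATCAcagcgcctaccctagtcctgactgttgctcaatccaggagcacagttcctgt
Treml1, chr17:48359666-48359965: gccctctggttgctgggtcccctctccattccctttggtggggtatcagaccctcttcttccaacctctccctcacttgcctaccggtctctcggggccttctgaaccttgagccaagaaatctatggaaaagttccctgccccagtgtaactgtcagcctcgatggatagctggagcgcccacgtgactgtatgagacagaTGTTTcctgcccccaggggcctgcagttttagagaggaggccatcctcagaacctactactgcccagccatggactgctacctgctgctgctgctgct

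Both strands of the promoters were searched for 5 short words. The AP-1 word TGANTCA, in which N is any base, was found in 7.85% of all 32619 promoters. The Trem2 promoter held 1 match to it, TGAATCA, with A at the open base. A short forkhead core, TGTTT, was found in 50.6% of all promoters, and the Treml1 promoter held 1 match to it. The ETS word GGAAGT was found in 23.9% of all promoters, and those of Trem1 and Treml4 held 1 match each. The longer forkhead word TGTTTAC, which contains the short core, was found in 3.67% of all promoters but in none of these 4. The PU.1 word GAGGAAGT, which contains the ETS word, was found in 3.22% of all promoters and likewise in none of the 4. These are letter matches in promoters without a peak. The sequence under the peaks was not read.

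Trem1 (gene ID 58217, chr17:48232713-48246927) had 8 peaks in replicate 1 and none in replicate 2. Among all genes, 96.6% had a replicate 1 peak within 5 kb and 83.0% a replicate 2 peak, so Trem1 lay with the minority lacking one in replicate 2. Its replicate 1 folds ran from 3.97 to 9.78 with a median of 4.91, close to the median of the whole list. The strongest lay 5676 bp into the gene, over the annotated pseudogene Gm18679, with a pileup of 40 fragments. The replicate 1 peak nearest the promoter ended 1662 bp before its first base and had a fold of 7.14.

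Trem3 (gene ID 58218, chr17:48247677-48258848), which encodes an activating receptor in mouse and is a pseudogene in human, had 7 peaks in replicate 1 and 1 in replicate 2. The replicate 1 folds ran from 4.23 to 10.7 with a median of 5.24. The single replicate 2 peak overlapped the strongest of them. It spanned chr17:48259833-48260036 in replicate 1 and chr17:48259878-48260069 in replicate 2, with summits 1076 and 1152 bp beyond the higher-coordinate end of Trem3. The fold there was 10.7 in replicate 1, against 4.12 in replicate 2 (mean 7.41 ± 4.64, SD, n = 2), with pileups of 45 and 20 fragments. The summits lay within the long non-coding RNA gene Gm52308, which runs across this end of the cluster. No replicate 2 peak lay in the Trem3 gene body, where replicate 1 had 2.

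The same shared peak counts for Treml4 (gene ID 224840, chr17:48264200-48275607), a receptor that in mouse binds dying cells. It lies between the genes and cannot be assigned to Trem3 or to Treml4, whose promoter begins 3976 bp beyond the end of the replicate 2 peak. Treml4 had 7 peaks in replicate 1, with folds from 3.64 to 11.8 and a median of 5.36, and no other in replicate 2. The strongest, with a pileup of 54 fragments, was 818 bp long and lay 4561 bp beyond the higher-coordinate end without a replicate 2 peak. In the gene body itself replicate 1 had 1 peak and replicate 2 none. Replicate 2 had empty stretches of 37.4 kb before the shared peak and 40.0 kb after it. Its mean over chromosome 17 was 4.31 peaks per 100 kb, and these stretches were not set against other gaps in that list.

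Treml2 (gene ID 328833, chr17:48299390-48312534), a receptor of lymphoid and myeloid cells, had 11 peaks in replicate 1, the most of any member, and 2 in replicate 2, as many as Trem2, Treml1 and Tyrobp. The replicate 1 folds ran from 3.05 to 8.49 with a median of 4.97. Its shared peak was not in the gene but 3912 and 3985 bp beyond the higher-coordinate end, inside the neighbouring coding gene B430306N03Rik. The fold there was 6.68 in replicate 1, against 3.47 in replicate 2 (mean 5.08 ± 2.27, SD, n = 2), with pileups of 50 and 20 fragments. In replicate 2, 25% of all peaks had an equal or lower fold, so this pair was weak in that list. The background term at this pair was 2.02 times the genome-wide one in replicate 1 and 1.19 times in replicate 2.

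A second pair of Treml2 peaks lay near the lower-coordinate end of the gene and overlapped by 67 bp. This was 34.7% of the replicate 1 peak and 18.3% of the replicate 2 peak, short of the 50% rule. Its folds were 8.49 in replicate 1 and 3.68 in replicate 2, and the summits were 237 bp apart. A replicate 1 peak outside this pair, with a fold of 3.29 and a pileup of 14 fragments, had its summit 66 bp inside the lower-coordinate end. The gene table gives no strand for Treml2, so whether this end is the start was not read from it. Treml2 was thus covered in both replicates near this end, but by peaks that mostly did not coincide.

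Treml1 (gene ID 71326, chr17:48359916-48367176), the platelet receptor gene, had 9 peaks in replicate 1 and 2 in replicate 2, with no overlap between them. The replicate 1 folds ran from 3.05 to 8.11 with a median of 4.45. The strongest began 284 bp beyond the last base of the promoter shown above, with its summit 478 bp into the gene and a pileup of 38 fragments. The replicate 2 peaks lay farther inside the gene, with folds of 4.18 and 3.04 and pileups of 23 and 15 fragments. They were 1383 and 515 bp from the nearest replicate 1 peak.

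Tyrobp (gene ID 22177, chr7:30413782-30417582), the adaptor gene, had 7 peaks in replicate 1 and 2 in replicate 2, and no peak of either list touched its gene body. Gene bodies free of peaks in both lists made up 8.28% of all protein-coding genes, and Tyrobp, at 3801 bp, is the shortest member. The replicate 1 folds ran from 3.05 to 11.7 with a median of 3.97. The strongest of these, with a pileup of 86 fragments, lay inside the neighbouring gene Nfkbid and 610 bp from its nearer end. Another, with a fold of 3.05, lay 34 bp inside the higher-coordinate end of Hcst, which encodes the adaptor DAP10.

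In replicate 2, the peak nearest Tyrobp spanned chr7:30413506-30413734, with its summit 137 bp outside the lower-coordinate end of the gene and inside the non-coding gene Gm32029. Its fold was 3.49 and its pileup 19 fragments. The nearest replicate 1 peak was 497 bp away, with a fold of 5.82. The other replicate 2 peak lay inside Hcst with a fold of 3.82. Both replicates thus had a peak within 1 kb outside the lower-coordinate end of Tyrobp, at different positions. The gene table gives no strand for Tyrobp, so whether this end is the start was not read from it.

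**Figure D3:**
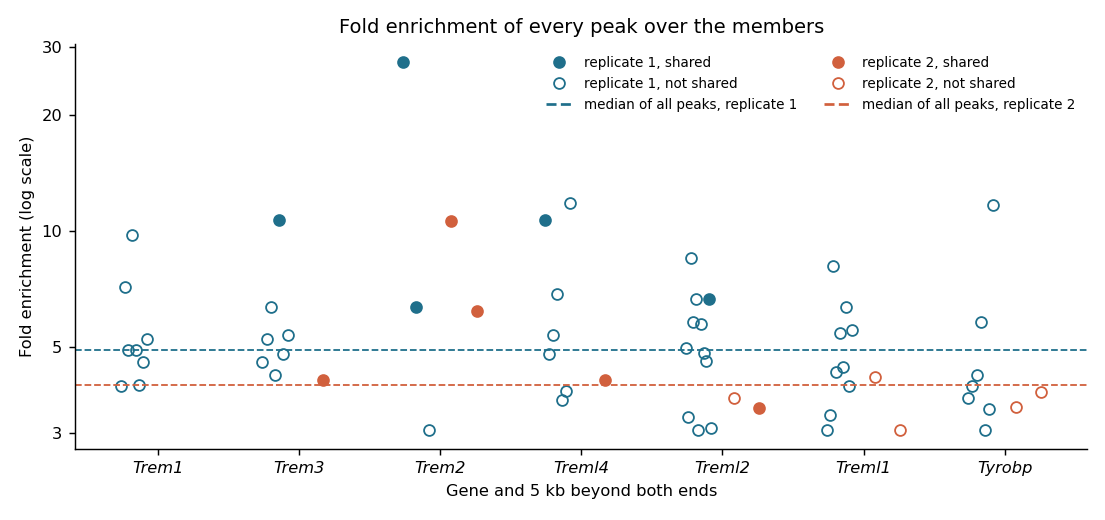
Fold enrichment on a log scale (vertical axis) of every peak over each member and 5 kb beyond both ends (horizontal axis), by replicate. Filled points are shared peaks, open points are not, and dashed lines mark the median of all peaks, 4.92 in replicate 1 and 3.99 in replicate 2. Trem2 has points of 10.6 and 6.19 in replicate 2, while the replicate 2 points of the other members lie at 4.18 or below.

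Outside Trem2, the members' strongest peaks were weaker than the median for a gene. The members' windows are shorter than the median of 27.3 kb over all genes, and the part of length in this was not tested. In replicate 1 the strongest peak per member ranged from 8.11 for Treml1 to 11.8 for Treml4, against a median of 12.4 over all genes with a peak. In replicate 2 it ranged from 3.68 for Treml2 to 4.18 for Treml1, against a median of 5.50. All 6 of these members were below the gene median in replicate 1, and the 5 with a peak were below it in replicate 2. In order of their strongest replicate 1 fold the members were Trem2 (27.4), Treml4 (11.8), Tyrobp (11.7), Trem3 (10.7), Trem1 (9.78), Treml2 (8.49) and Treml1 (8.11). A single fold per library gives no spread within a library, so neighbours in this order were not told apart.

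By number, the members held slightly more peaks per length than genes in general. Replicate 1 had a median of 3.31 peaks per 10 kb of window over the members, against 3.06 over all genes. In replicate 2 the medians were 0.864 and 0.616 for the members and all genes. Pooled over windows, density over the members was 1.41 times that over all genes in each replicate. Pooling weights long genes more, and the pooled densities of all genes, 2.69 and 0.52 in replicates 1 and 2, lay below their medians. Density was not set against windows of the members' length. Treml1 had 5.21 peaks per 10 kb in replicate 1 and 1.16 in replicate 2, and Tyrobp 5.07 and 1.45, both above the upper quartiles of all genes (4.38 and 1.06). Trem2 was low in replicate 1, at 1.89, and high in replicate 2, at 1.26. The replicate 2 densities of Trem2, Treml1 and Tyrobp each rest on 2 peaks, which is also the median number over all genes. The 1.41-fold ratio depends on the window: within 1 kb of the gene ends it was 0.834 in replicate 1 and 0.696 in replicate 2.

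**Figure D4:**
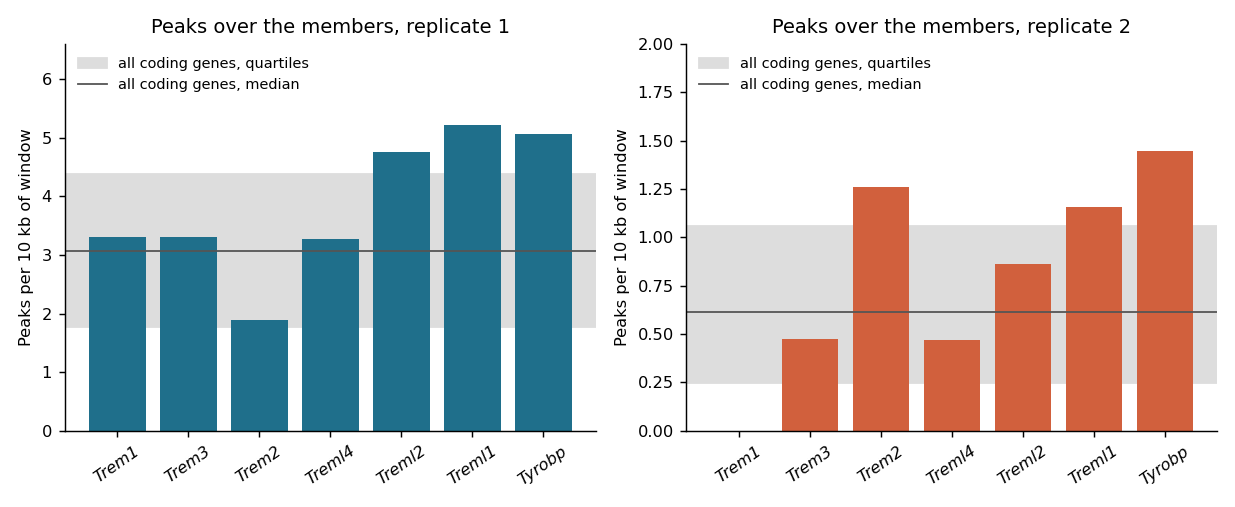
Peaks per 10 kb of window (vertical axis) for each member (bars) in replicate 1 (left) and replicate 2 (right), with the quartiles (grey band) and median (line) of all protein-coding genes. Treml1 and Tyrobp stand above the band in both panels, and Trem1 has no bar in replicate 2. The vertical scales differ.

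Over the whole cluster with its flanks (chr17:48227713-48372176, 144 kb) there were 53 peaks in replicate 1 and 8 in replicate 2. These were 36.7 and 5.54 peaks per 100 kb, or 1.51 and 1.28 times the chromosome 17 mean. The cluster thus held somewhat more peaks than its chromosome in each list, and 4 of the peaks in each were shared.

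Other genes of the Trem and Tyrobp pathway were set beside the members. Of 27 genes of the signalling cascade below Tyrobp, all 27 had a peak in both replicates and 22 (81.5%) a shared peak, against 82.7% and 63.5% of all genes. Their windows are long, with a median of 63.4 kb, against 27.3 kb for all genes, and the part of length in these shares was not tested. The leading genes were Grb2, an adaptor of receptor signalling, with strongest folds of 19.6 in replicate 1 and 7.08 in replicate 2, Pik3ap1, which couples receptors to PI3 kinase, with 21.5 and 6.71, and Malt1, a protease that acts with Card9 and Bcl10, with 15.7 and 8.68. Syk and Btk were among the 5 without a shared peak.

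Of 12 ligand and receptor-processing genes, all 12 had a peak in both replicates and 9 (75%) a shared one, against 82.7% and 63.5% of all genes. Their median window was 56.6 kb, also longer than that of all genes. Adam10, which sheds the outer part of Trem2, had strongest folds of 19.6 in replicate 1 and 7.67 in replicate 2. Adam17, a related sheddase, had 16.2 and 7.32, and Sema6d, a semaphorin ligand of plexin A1, had 16.4 and 8.27 over a window of 588 kb. The Trem2 ligand gene Apoe had 7 and 4 peaks and no shared one.

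Other receptors that pair with Tyrobp had few peaks in both replicates. Their median density was 1.91 peaks per 10 kb in replicate 1 and 0 in replicate 2, against 3.06 and 0.616 over all genes. The median strongest fold in replicate 1 was 7.65, against 12.4 over all genes with a peak. Of 14, all had a peak in replicate 1, against 96.6% of all genes. In both replicates 5 (35.7%) had one, and 2 (14.3%) had a shared one, Siglec15 and Sirpb1a, against 82.7% and 63.5% of all genes. Their median window was 22.6 kb, within the range of the members. Strongest folds were 15.7 and 5.50 for Siglec15, a lectin of osteoclasts, 11.1 and 6.28 for Sirpb1a, and 11.9 and 4.52 for Sirpb1b, in replicates 1 and 2. The Sirpb1, Klra and Pilrb genes have near-identical copies that can share or lose reads, so their counts are uncertain.

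Of 8 other adaptor chains, 7 had a peak in both replicates and 3 (37.5%) a shared one, Cd79a, Cd79b and Cd3g, against 82.7% and 63.5% of all genes. Their median window was short, at 15.0 kb. The strongest folds were 12.4 and 4.12 for Cd247, the zeta chain of the T cell receptor, 7.52 and 5.35 for Fcer1g, the common Fc receptor chain, and 11.7 and 3.82 for Hcst, whose window shares its strongest peak with that of Tyrobp. None of these 3 had a shared peak. None of the genes in these 4 lists had a strongest fold as high as that of Trem2 in either replicate.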

How the data were processed

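The authors' peak lists of both Foxp3 libraries were used. Per the file headers, the authors called peaks in MACS 2.1.1.20160309 from paired-end fragments, library by library, at q = 0.01. No control entered the calling and duplicate fragments were kept, so a site cut with any antibody can be listed. CASAVA 1.4 and the build mm10 are named, per the submitters' processing notes. For the aligner, no name is given in the sources used here.

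The deposited pileup is a signal, the fragments over the summit, without depth scaling. The deposited fold enrichment is a ratio to a background term of the same library, and −log10 p and −log10 q are the authors' significance values. The background term was recomputed as pileup plus 1 over fold. Its most frequent value was taken as the genome-wide term.

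Genes were placed with a RefSeq table of GRCm38.p6, which is mm10, on 19 autosomes and X. It gives no strand. All 7 members matched. Peaks were joined to windows and to each other in Python 3.11.15 with numpy 2.4.6 and pandas 2.3.3, and the joins were tested on simulated intervals. No test was run, since a comparison of groups would need the IgG library. Members and lists were chosen with earlier results of these data known. Named genes were all members, the genes at their shared peaks, and the 3 of each pathway list with the highest mean percentile of the strongest peak. Others are named where they bear on a member or were chosen after their values were seen (Syk, Btk, Apoe). Alternatives were other windows, overlaps, thresholds and peak numbers, and each replicate alone.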

Additional observations from a re-analysis of the deposited data

How the results depend on the processing

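Counts were called unchanged within 1.5 times, and the density ratio within the SD of the replicates' ratios in the main setting, 0.00432. Both of those ratios round to 1.41, so this limit is narrow, and under other settings the replicates differed more. With gene bodies alone, 3 of 7 members had a peak in both replicates and 1 a shared peak (75.1% and 55.7% of all genes). There were 19 and 5 peaks in replicates 1 and 2, and 2 shared pairs. The density ratio, here and below the mean of both replicates, was 1.25 (1.06 in replicate 1 and 1.45 in replicate 2). Within 1 kb of gene ends, these were 3 and 1 members (62.2% and 43.7% of all genes), 11 and 4 peaks, 1 pair and 0.765, a ratio on the other side of 1. With 10 kb flanks the ratio was 1.17. At a −log10 q of at least 5, replicate 2 had 5 peaks and the ratio was 1.37 (1.52 in replicate 1 and 1.22 in replicate 2). With replicate 1 peaks of at least 13 fragments it was 1.49. With replicate 1 limited to the peak number of replicate 2, 9 peaks remained by −log10 q (ratio 1.36), and 7 peaks with 2 shared pairs by fold (ratio 1.30). The other 51 of 72 values stayed within these limits. Trem2 had a shared peak under every window, overlap and threshold tried, as did 43.7% to 75.9% of all genes depending on the setting. It was not always the same peak. Within 1 kb of gene ends it was the weaker one, since the stronger lies farther inside the gene. With each replicate alone, 6 members had a peak in replicate 2 (83.0% of all genes) and 7 in replicate 1 (96.6% of all genes). No paired analysis was possible because the labels number replicates in the Foxp3 group only. The lists hold no peak with a pileup under 10 fragments in replicate 1 or 13 in replicate 2. No IgG values stand beside any peak.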

Other observations

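Outside the windows, the nearest coding gene end to one strong shared peak was that of Trem1, 10374 bp away on its lower-coordinate side. It spanned chr17:48221725-48222406 in replicate 1 and chr17:48221946-48222484 in replicate 2, with folds of 16.9 and 9.47 and pileups of 81 and 52 fragments. In each replicate this fold was above that of every member peak except the stronger one in Trem2. Beyond Treml1, the next shared peak within 50 kb of the cluster lay over the higher-coordinate end of Nfya. This gene encodes a subunit of the CCAAT-binding factor NF-Y. The folds were 10.4 in replicate 1 and 5.95 in replicate 2, where the peak also reached into Oard1.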
